A study of Mus musculus with 100 samples.

Results

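Injured knee joints of C57BL/6 mice were compared between 1-week and 1-day after injury. The members are the 5 libraries of injured joints at each time point that the labels give for this strain, 10 of the 100 libraries of the series, and all 17310 genes were tested. In the study, RNA from whole knee joints of C57BL/6 (C57BL/6J in its methods), MRL/MpJ and STR/ort mice was sequenced before and after a joint injury that models post-traumatic osteoarthritis. At 10 weeks of age the right knee was loaded once at 10 to 12 N until the anterior cruciate ligament ruptured, and the left knee was the uninjured contralateral joint. The labels give no transgene or deletion in any group. Per the methods of the study the mice were under isoflurane during loading and received the opioid buprenorphine directly afterwards. The joints were dissected, so each time point used different animals. Each mouse of the 1-day and 1-week groups had its right knee injured. The methods of the study count joints per group, but the labels tie no library to an animal, and p-values measure the spread between libraries.

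Beside the 10 injured joints, 5 contralateral joints at 1-day, 5 at 1-week and 4 joints at 0-day, before injury, of C57BL/6 entered the fit. All these libraries belong to experimental batch 1 in the labels. A contralateral joint comes from an animal that was injured on the other side and is not a joint of an untouched animal. The joints were dissected with traces of soft tissue, and the libraries held transcripts of bone, cartilage, marrow, fat and muscle together. In the 10 injured joints the summed level of 14 osteoblast and osteocyte genes ranged from 1386 to 2888 CPM, read counts scaled to a common library total, that of 19 cartilage genes from 2307 to 6818 CPM, and that of 17 fast muscle genes from 46780 to 90350 CPM. Fewer cells of a type and less RNA per cell cannot be told apart in such samples.

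Total counts of the 10 libraries ranged from 7556012 to 12940434. On the first principal component of log2 CPM, which held 36.9% of the variance of the 24 C57BL/6 libraries, the injured joints lay between -35.28 and -16.19 at 1-day and between -16.42 and 0.58 at 1-week. The injured 1-week library of replicate 5 stood apart at -16.42, next to the 1-day libraries, while the other 4 lay at -4.63 or above. Contralateral joints shifted along this axis as well, from between 0.48 and 7.92 at 1-day to between 18.16 and 32.74 at 1-week.

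**Figure D1:**
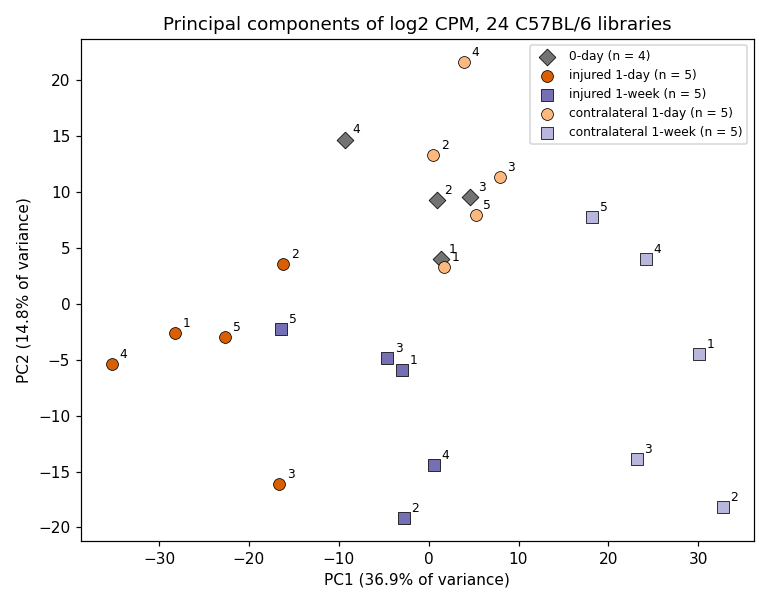
First and second principal component of log2 CPM in the 24 C57BL/6 libraries, with the percent of variance on each axis; each point is 1 library and the number beside it its replicate. Both injured and contralateral libraries lie further right at 1-week than at 1-day, except the injured 1-week library of replicate 5, which at -16.42 lies just left of the rightmost injured 1-day library at -16.19.

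Rupture of a ligament starts an inflammatory phase, in which resident cells release chemokines that draw neutrophils and monocytes out of the blood. Monocytes become macrophages that clear debris, and fibroblasts of synovium and ligament then lay down collagen, matricellular proteins and the enzymes that crosslink and cut them. The comparison of 1-week with 1-day addresses how far the joint had moved along this course.

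Between 1-day and 1-week, 753 genes (4.35% of those tested) changed in injured joints, with 288 higher (1.66%) and 465 lower (2.69%) at 1-week. A change was called at an adjusted p below 0.05 and a fold change above 1.5, and log2 fold changes are given as 1-week over 1-day with their standard errors (SE). More than 2-fold changes were called for 109 genes that rose and 174 that fell. Every 1-week joint was above every 1-day joint for 866 genes (5%) and below for 986 (5.7%). Without the 1-week library of replicate 5, 284 genes were higher and 520 lower. The split depended on the scale. When libraries were scaled by the 25 housekeeping genes that the study lists, the median log2 fold change of all genes moved from -0.01 to 0.13, and 687 genes were called higher and 296 lower. The same 25 genes were also used to estimate 1 or 2 factors of unwanted variation (RUVg) that were added to the fit. For each gene list, the calls were recounted under 20 alternatives, which included leaving out each of the 10 injured joints. The alternative with no filter equals the main fit, because the filter removed 0 genes, and could not differ. In contralateral joints over the same interval, 251 genes were higher (1.45%) and 542 lower (3.13%), and 158 were higher without 1-week contralateral replicate 2. Against contralateral joints of the same time, 4.41% of all genes were higher in injured joints at 1-day and 4.73% at 1-week. These shares stand beside every list count below that carries none, and counts of 1 or 2 in a list can lie near them.

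Of 11 genes named for the smallest adjusted p among those that fell, C3ar1, Angptl7, Stab1 and Ildr2 were also called lower in contralateral joints and 7 were not called there. Of 11 that rose, Lrrc15 was called higher and Adamts16 lower in contralateral joints and 9 were not called. The falling genes were Lgmn, C3ar1, Angptl7, Tubb6, Msr1, Pid1, Ccl2, Stab1, Rab7b, Ildr2 and Cd68. Msr1, Stab1 and Cd68 encode scavenger receptors and a lysosomal protein of macrophages, C3ar1 the receptor for the complement fragment C3a, Lgmn a lysosomal protease and Rab7b a small GTPase of the endolysosome. The rising genes were Pamr1, Tspan2, Mest, Adamts16, Fbn2, Lrrc15, Spon2, Itm2a, Igf2, Dkk3 and Igfbp3. Fbn2 encodes a fibrillin, Spon2 a secreted matrix protein, Adamts16 a metalloproteinase, Dkk3 a secreted protein of the Dickkopf family, Igf2 a growth factor and Igfbp3 a protein that binds it, and Lrrc15 marks activated fibroblasts.

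**Figure D2:**
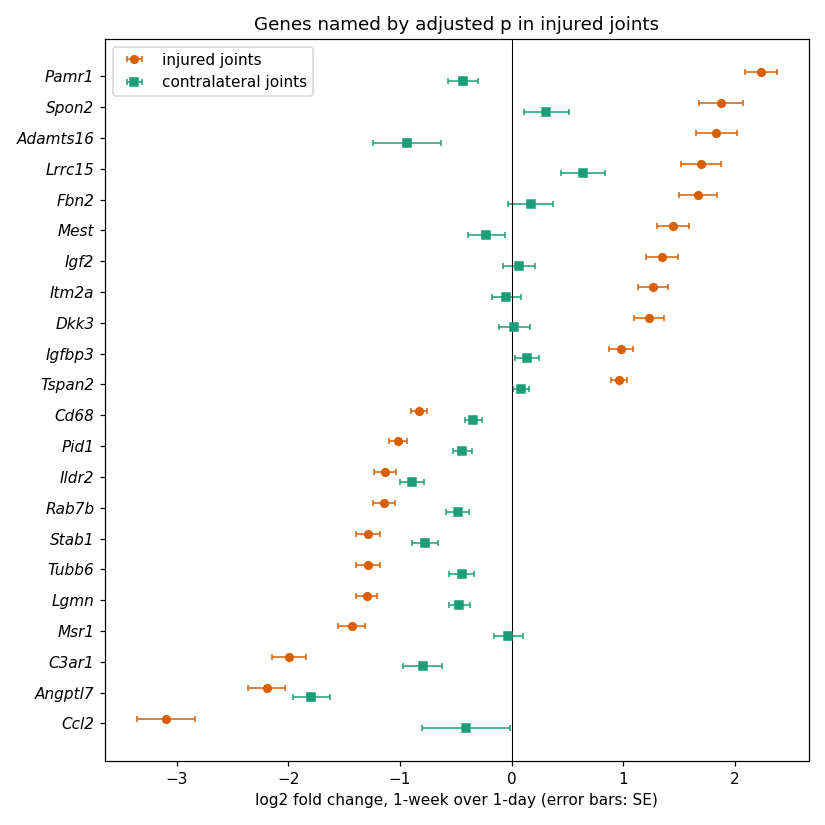
Log2 fold change of 1-week over 1-day (x axis) with its SE for 11 rising and 11 falling genes named for the smallest adjusted p in injured joints, shown for injured joints (circles) and contralateral joints (squares). Ccl2 had the largest fall of these genes in injured joints at -3.10 and Pamr1 the largest rise at 2.23, while their contralateral values were -0.41 and -0.44.

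Of the 24 measured genes on the list of inflammatory cytokines and chemokines, 13 were lower at 1-week (2.69% of all genes) and 0 higher in injured joints, and 2 were lower (3.13% of all genes) and 2 higher in contralateral joints. Over the 20 alternatives 10 to 13 were lower and 0 to 3 higher. Their median log2 fold change was -0.72 in injured joints, beside -0.01 over all genes, with 16 negative and 8 positive values. The summed level of the list overlapped between the injured groups, at 1126 to 1316 CPM at 1-day and 1053 to 1187 CPM at 1-week. Against contralateral joints of the same time, 12 members were higher in injured joints at 1-day (4.41% of all genes) and 4 at 1-week (4.73%). The monocyte attractant Ccl2 (chr11:82035577-82037452, mouse assembly GRCm38.p6) had 7.73, 5.90, 8.98, 10.0 and 6.62 CPM in the 5 injured joints at 1-day and 0.738, 0.729, 1.11, 0.969 and 1.00 CPM at 1-week. All 1-week joints lay below all 1-day joints, within the range of the 0-day joints (0.280 to 1.16 CPM). The log2 fold change was -3.10 ± 0.26 (adjusted p = 7.83e-09), and that in contralateral joints was -0.41 ± 0.39 (adjusted p = 0.587). The 2 changes differed by -2.69 ± 0.51 (adjusted p of the interaction of injury and time = 0.00320).

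Ccl7, a second monocyte attractant encoded beside Ccl2 on chromosome 11, had 15.3, 8.09, 11.1, 20.5 and 12.7 CPM at 1-day and 1.05, 1.46, 1.31, 1.29 and 1.17 CPM at 1-week, a change of -3.43 ± 0.33 (adjusted p = 5.68e-08). The neutrophil attractant Cxcl5 had 15.1, 6.16, 9.65, 31.6 and 11.4 CPM at 1-day and 2.00, 1.91, 2.82, 2.34 and 2.84 CPM at 1-week, a change of -2.66 ± 0.32 (adjusted p = 1.57e-06). The 1-day values of both genes varied among libraries, with replicate 4 highest, yet none reached down to the 1-week values. In contralateral joints Cxcl5 changed by 0.18 ± 0.38 (adjusted p = 0.838), and the interaction was -2.84 ± 0.51 (adjusted p = 0.00194). Cxcl1, which also attracts neutrophils, had 4.52, 2.31, 3.22, 4.62 and 3.08 CPM at 1-day and 0.211, 0.456, 0.403, 1.29 and 1.00 CPM at 1-week, a change of -2.33 ± 0.32 (adjusted p = 1.26e-05).

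Of the interleukins, Il6 had 2.50, 0.385, 1.61, 2.00 and 1.49 CPM at 1-day and 0.316, 0.820, 0.403, 0.727 and 0.334 CPM at 1-week. Its groups overlapped, because 1-day replicate 2 was as low as the 1-week joints, and the change was -1.60 ± 0.35 (adjusted p = 0.00271). Il33, an alarmin of stromal cells, had 31.0, 17.3, 25.6, 45.8 and 26.2 CPM at 1-day and 12.1, 12.7, 12.6, 12.8 and 12.0 CPM at 1-week, a change of -1.25 ± 0.19 (adjusted p = 7.02e-05). The 1-week values of Il33 stood close together and above every 0-day value (8.11 to 9.83 CPM). The macrophage growth factor Csf1 had 84.5, 74.2, 80.0, 99.3 and 96.2 CPM at 1-day and 45.9, 55.0, 56.3, 52.1 and 52.8 CPM at 1-week, a change of -0.73 ± 0.08 (adjusted p = 3.27e-07). Csf1 was called on this scale, but not with housekeeping scaling, where its log2 fold change was -0.58. Il1b and Tnf, the cytokines best known for starting joint inflammation, were not called. Il1b had 17.5, 18.7, 23.1, 22.8 and 20.6 CPM at 1-day and 18.3, 32.1, 35.7, 25.2 and 40.9 CPM at 1-week, with a change of 0.57 ± 0.21 that missed the threshold (adjusted p = 0.0682). It passed without 1-week replicate 1 (0.70, adjusted p = 0.0240) and with housekeeping scaling (0.72, adjusted p = 0.0135). For Tnf the change was 0.23 ± 0.21 (adjusted p = 0.512).

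The remaining members called lower were Ccl8, Ccl9, Ccl12, Cxcl10, Cxcl14 and Il11, with log2 fold changes from -1.51 to -0.72. The calls of Ccl12, Cxcl14 and Il11 were lost when 1-day replicate 4 was left out, at -1.23, -0.58 and -1.01 respectively, with adjusted p of 0.0585, 0.0114 and 0.0587. The call of Ccl9 was lost with housekeeping scaling (-0.57), that of Cxcl10 with 2 RUVg factors (adjusted p = 0.0588) and that of Il11 with 1 or 2 (adjusted p = 0.0873 and 0.140). Genes near 1 CPM, such as Il6 and Ccl12, rest on few reads at this depth.

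Promoters of the genes that fell together are shown because kappa B sites, the DNA element of the inflammatory transcription factor NF-kappa B, are known in several of them. Sequences were taken from the RefSeq promoters of GRCm38.p6, which held 18 of the 24 list members and 10 of the 13 that fell. Ccl2, Ccl7 and Cxcl5 had no entry. The 250 bases before the transcription start were searched on both strands for the kappa B consensus, and overlapping matches were joined. It was found in 5 of the 10 promoters of members that fell, in 1 of the 8 others, and in 3.75% of the 27025 promoters of all genes. The AP-1 motif TGANTCA was found in 3 of the 10, in 2 of the 8 others and in 6.87% of all promoters, and did not overlap a kappa B match in the promoters shown. The 5 promoters with a kappa B match follow from 5′ to 3′ on the strand of the gene, with the match in capitals and the last base next to the start.
Cxcl1 (chr5:90890995-90891244, plus strand): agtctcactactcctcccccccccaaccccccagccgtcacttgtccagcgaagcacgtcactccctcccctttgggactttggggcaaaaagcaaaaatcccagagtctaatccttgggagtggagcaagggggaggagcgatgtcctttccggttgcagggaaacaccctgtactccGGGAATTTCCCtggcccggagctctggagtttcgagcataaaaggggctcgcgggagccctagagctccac
Il6 (chr5:30012864-30013113, plus strand): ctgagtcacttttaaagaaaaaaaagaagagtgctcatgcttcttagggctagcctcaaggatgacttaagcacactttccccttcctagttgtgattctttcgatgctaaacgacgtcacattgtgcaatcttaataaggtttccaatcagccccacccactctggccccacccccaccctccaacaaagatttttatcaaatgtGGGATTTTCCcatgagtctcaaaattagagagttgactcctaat
Cxcl10 (chr5:92348890-92349139, minus strand): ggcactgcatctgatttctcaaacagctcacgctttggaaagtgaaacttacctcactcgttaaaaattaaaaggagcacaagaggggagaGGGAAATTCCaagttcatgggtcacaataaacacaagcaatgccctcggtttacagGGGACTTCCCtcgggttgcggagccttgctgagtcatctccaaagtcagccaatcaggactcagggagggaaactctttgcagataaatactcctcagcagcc
Csf1 (chr3:107760470-107760719, minus strand): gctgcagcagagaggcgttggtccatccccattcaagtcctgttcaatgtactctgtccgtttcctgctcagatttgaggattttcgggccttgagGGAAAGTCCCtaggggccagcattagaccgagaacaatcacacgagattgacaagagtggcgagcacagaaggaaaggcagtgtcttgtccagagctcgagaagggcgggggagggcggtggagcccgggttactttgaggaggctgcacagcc
Ccl9 (chr11:83578637-83578886, minus strand): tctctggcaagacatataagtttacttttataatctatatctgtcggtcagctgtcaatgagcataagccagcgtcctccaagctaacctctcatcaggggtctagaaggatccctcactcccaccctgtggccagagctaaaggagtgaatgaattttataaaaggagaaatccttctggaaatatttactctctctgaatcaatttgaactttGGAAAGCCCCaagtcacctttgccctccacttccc

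The kappa B match nearest to the start lay at bases 71 to 61 before it in Cxcl1, 44 to 35 in Il6, 103 to 94 in Cxcl10, 154 to 145 in Csf1 and 35 to 26 in Ccl9. Cxcl10 held 2 matches. A match is a property of the letters and was not tested as a binding site.

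Of 21 measured monocyte and macrophage genes, 15 were lower (2.69% of all genes) and 0 higher in injured joints at 1-week. The median log2 fold change was -0.78 (18 negative and 3 positive values). Over the 20 alternatives 12 to 15 were lower, and 1 was higher without 1-week replicate 5. In contralateral joints 1 was lower (3.13% of all genes) and the median was -0.18. Compared with contralateral joints of the same time, 13 were higher in injured joints at 1-day (4.41% of all genes) and 3 at 1-week (4.73%).

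The scavenger receptor Msr1 (chr8:39543232-39642750) had 33.05, 23.9, 34.7, 37.0 and 30.2 CPM at 1-day and 13.2, 11.7, 10.5, 10.5 and 13.1 CPM at 1-week, a change of -1.43 ± 0.12 (adjusted p = 5.92e-09). Its contralateral joints stayed between 7.33 and 11.6 CPM at both times, and the interaction was -1.40 ± 0.18 (adjusted p = 3.94e-05). The pan-macrophage gene Adgre1 (F4/80) had 130.3, 104, 133, 134 and 110.3 CPM at 1-day and 75.8, 63.0, 73.5, 58.3 and 64.5 CPM at 1-week, a change of -0.87 ± 0.08 (adjusted p = 3.36e-08). The groups of both genes were apart, and the interaction of Adgre1 was -0.82 ± 0.12 (adjusted p = 0.000135). C3ar1 had 96.4, 72.4, 102, 123 and 79.3 CPM at 1-day and 23.9, 24.7, 21.1, 23.8 and 25.2 CPM at 1-week, a change of -1.9952 ± 0.15 (adjusted p = 1.63e-09). In contralateral joints C3ar1 changed by -0.80 ± 0.18 (adjusted p = 0.00338). At 1-week C3ar1 was above the 0-day level in every joint (11.4 to 17.8 CPM).

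Trem2, a lipid-sensing receptor, changed by -1.54 ± 0.15 (adjusted p = 6.45e-08) and the lysosomal protein Cd68 by -0.83 ± 0.07 (adjusted p = 1.21e-08). Ccr2, the receptor of inflammatory monocytes for Ccl2, changed by -0.78 ± 0.11 (adjusted p = 1.14e-05), and Cx3cr1 by -0.94 ± 0.11 (adjusted p = 2.11e-06). Each of these 4 genes was lower in all 1-week joints than in all 1-day joints. Apoe, a lipid carrier secreted by macrophages among other cells, had 1096, 855, 1115, 1220 and 914 CPM at 1-day and 594, 595, 536, 509.8 and 564 CPM at 1-week, a change of -0.89 ± 0.10 (adjusted p = 5.75e-07). The lysosomal proteases Lgmn and Ctss changed by -1.30 ± 0.09 and -0.97 ± 0.09 in injured joints, and their interactions were -0.83 ± 0.13 (adjusted p = 0.000418) and -0.93 ± 0.12 (adjusted p = 6.99e-05). In all, 5 of the 21 macrophage genes were called in the interaction, all lower, against 0.711% of genes tested.

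Of 12 MHC class II and dendritic cell genes, 4 were lower in injured joints (median -0.43) beside a contralateral median of 0.10. The count depended on the scale, with 0 lower and 1 higher under housekeeping scaling, 1 lower with 1 RUVg factor, and 2 lower without 1-week replicate 2. H2-Eb1, a class II beta chain, had 134, 126, 140.2, 148 and 129.5 CPM at 1-day and 104, 64.5, 84.6, 72.9 and 86.2 CPM at 1-week, a change of -0.72 ± 0.12 (adjusted p = 0.000252) with an interaction of -0.83 ± 0.18 (adjusted p = 0.00817). All its 1-week joints were below all its 1-day joints. With housekeeping scaling or 1 RUVg factor its change of -0.57 or -0.54 was no longer over 1.5-fold.

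**Figure D3:**
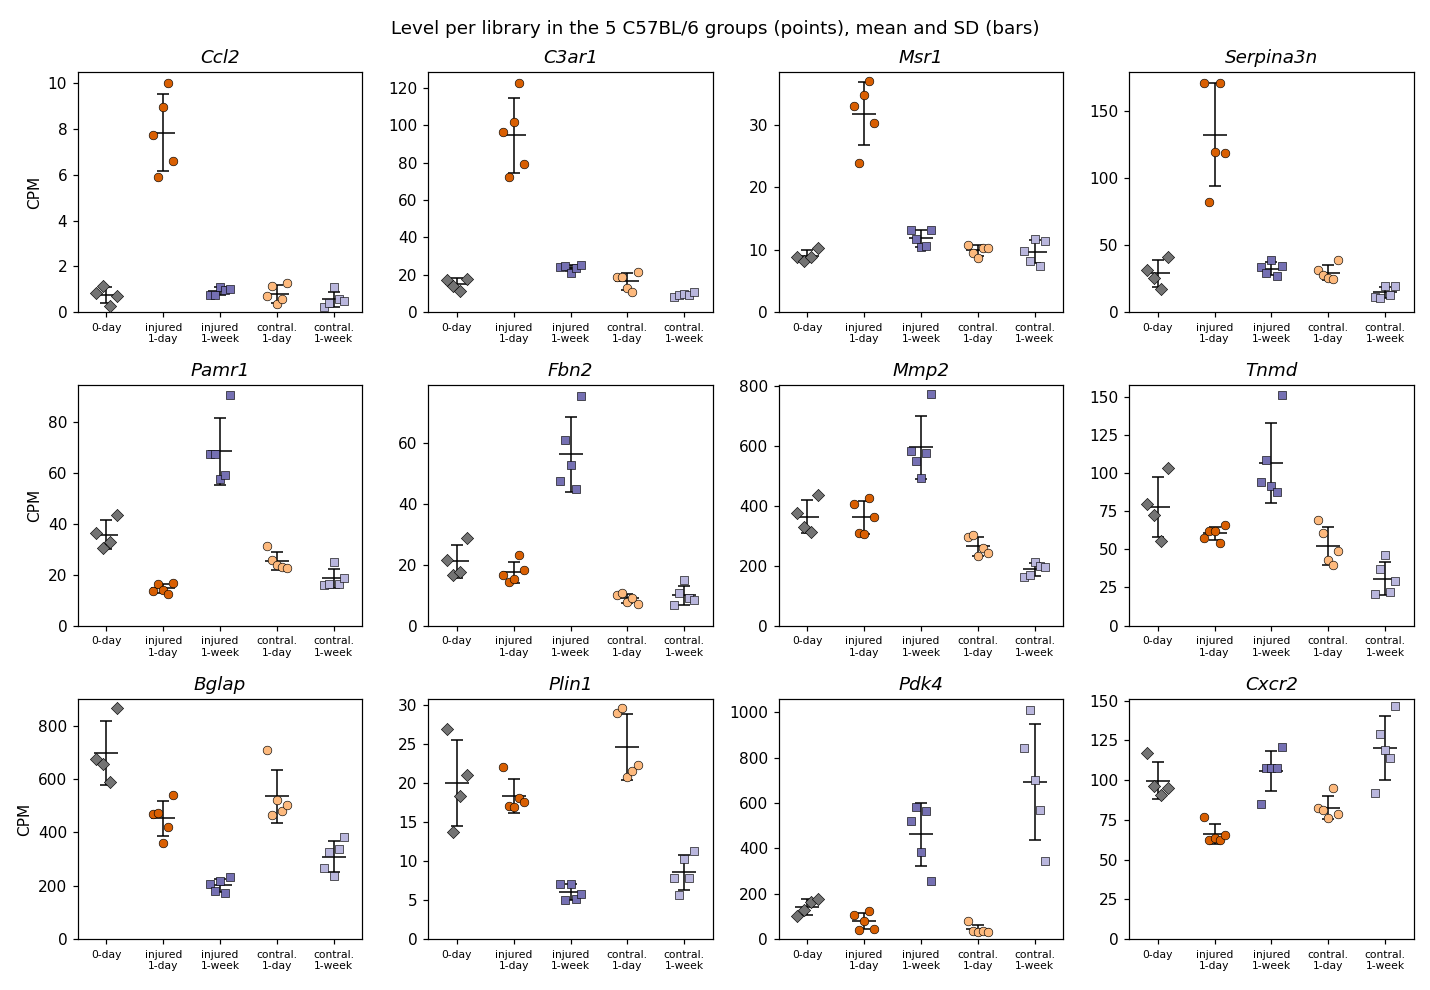
CPM (y axis) of 12 genes in each of the 24 C57BL/6 libraries (points), with the group mean and SD (bars). Ccl2, C3ar1, Msr1 and Serpina3n are high in injured joints at 1-day and lower in every injured joint at 1-week, Pamr1, Fbn2, Mmp2 and Tnmd are higher in every injured joint at 1-week, as is Cxcr2, and Bglap and Plin1 are lower and Pdk4 higher at 1-week in both joints.

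Acute-phase genes, metallothioneins and genes of fibrinolysis were among the genes that fell. Of 18 acute-phase, glucocorticoid and metallothionein genes, 6 were lower and 2 higher in injured joints, and 1 was lower and 3 higher in contralateral joints. Saa3, a serum amyloid protein, had 10.3, 4.36, 6.70, 9.40 and 4.29 CPM at 1-day and 0.738, 0.638, 0.807, 0.808 and 1.34 CPM at 1-week, a change of -3.00 ± 0.35 (adjusted p = 9.82e-07). The protease inhibitor Serpina3n had 171, 81.8, 119, 171 and 119 CPM at 1-day and 33.3, 28.8, 39.0, 26.6 and 34.2 CPM at 1-week, a change of -2.04 ± 0.20 (adjusted p = 9.87e-08). Both genes were lower in every 1-week joint. The metal-binding Mt2 had 405, 166, 213, 531 and 194 CPM at 1-day and 102, 77.5, 91.2, 126 and 124 CPM at 1-week, with replicates 1 and 4 more than 1.5-fold above the other 1-day joints, and changed by -1.54 ± 0.24 (adjusted p = 6.57e-05).

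The 2 members that rose were Pdk4 and Zbtb16, which also rose in contralateral joints. The injured call of Zbtb16 was lost with 1 or 2 RUVg factors, at 0.52 and 0.41. Of 12 plasminogen and coagulation genes 2 were lower in injured and 2 in contralateral joints (medians -0.14 and -0.32). One of those called in injured joints was Plau, which encodes urokinase and changed by -0.91 ± 0.12 (adjusted p = 9.98e-06). Has2, the enzyme that makes hyaluronan in synovium, had 32.7, 19.6, 26.8, 50.8 and 28.7 CPM at 1-day and 6.64, 8.93, 8.98, 9.61 and 10.2 CPM at 1-week, a change of -1.85 ± 0.18 (adjusted p = 5.68e-08). Has2 also fell in contralateral joints, with a change of -1.01 ± 0.23 (adjusted p = 0.00412), and its interaction of -0.84 ± 0.30 was not called (adjusted p = 0.167), though it passed without 1-day injured replicate 2 (-0.96, adjusted p = 0.0457).

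Several genes of matrix and growth rose in injured joints. Pamr1 (chr2:102549939-102643041), a secreted protein with a protease-like domain named for its association with muscle regeneration, had 13.8, 16.3, 13.8, 12.6 and 16.6 CPM at 1-day and 67.4, 67.7, 57.8, 59.3 and 90.6 CPM at 1-week. No value of one group came near the other, and the 1-day joints were also below the 0-day joints (30.4 to 43.7 CPM). Pamr1 changed by 2.23 ± 0.14 (adjusted p = 6.41e-11), and the contralateral joints went from 22.6 to 31.4 CPM at 1-day to 15.8 to 25.2 CPM at 1-week. The interaction was 2.67 ± 0.20 (adjusted p = 3.11e-09).

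Fbn2, a fibrillin of elastic microfibrils, had 16.6, 14.2, 15.3, 23.2 and 18.1 CPM at 1-day and 47.5, 60.7, 52.6, 44.8 and 75.3 CPM at 1-week, a change of 1.67 ± 0.17 (adjusted p = 1.93e-07). Lrrc15 had 18.2, 15.3, 16.4, 23.6 and 19.9 CPM at 1-day and 64.2, 55.3, 44.3, 52.9 and 88.5 CPM at 1-week, a change of 1.70 ± 0.18 (adjusted p = 2.01e-07). For both genes 1-week replicate 5 was the highest joint, and the other 4 joints also lay above every 1-day joint. Without replicate 5 the changes were 1.54 and 1.52. Adamts16 had 2.38, 2.82, 1.34, 2.77 and 2.24 CPM at 1-day and 8.43, 9.57, 6.66, 8.97 and 8.28 CPM at 1-week, a change of 1.83 ± 0.19 (adjusted p = 1.30e-07). Dkk3 had 63.2, 58.1, 47.1, 65.7 and 69.6 CPM at 1-day and 143, 129, 129, 123 and 190.4 CPM at 1-week, a change of 1.23 ± 0.13 (adjusted p = 3.28e-07).

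Among the other rising genes named for the smallest adjusted p, Igf2 had 18.1, 18.2, 20.2, 15.7 and 16.1 CPM at 1-day and 45.2, 45.0, 36.2, 40.5 and 56.3 CPM at 1-week, a change of 1.35 ± 0.14 (adjusted p = 2.40e-07). Mest, which like Igf2 is expressed from the paternal allele, changed by 1.45 ± 0.15 (adjusted p = 1.23e-07), Igfbp3 by 0.98 ± 0.11 (adjusted p = 3.88e-07), Itm2a by 1.26 ± 0.13 (adjusted p = 2.14e-07) and Spon2 by 1.87 ± 0.20 (adjusted p = 2.01e-07). The tetraspanin Tspan2 changed by 0.96 ± 0.07 (adjusted p = 1.59e-09), with an interaction of 0.88 ± 0.10 (adjusted p = 1.78e-05). All of these genes were higher in each 1-week joint than in any 1-day joint.

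Few collagens were called in injured joints. Of 17 collagens, 2 were higher and 0 lower (median 0.20), a count that ranged from 0 to 4 over the alternatives, while 5 were lower in contralateral joints (median -0.44), and 6 were called in the interaction, all higher, against 0.826% of genes tested. Col3a1, the collagen of early repair tissue, had 7177, 4631, 5317, 8679 and 6301 CPM at 1-day and 6591, 6736, 5781, 6349 and 8828 CPM at 1-week. The groups overlapped and the change was 0.09 ± 0.18 (adjusted p = 0.780), while the 0-day joints had 1989 to 3395 CPM. The difference of injured from contralateral joints was 1.90 ± 0.18 at 1-day (adjusted p = 2.91e-08) and 2.42 ± 0.19 at 1-week (adjusted p = 4.37e-10). Col1a1, the main collagen of bone and tendon, changed by -0.28 ± 0.18 (adjusted p = 0.316).

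The size of the change of the 2 collagens called higher rested on 1 library. Col12a1, a collagen of fibril surfaces, had 459, 371, 316, 490.0 and 444 CPM at 1-day and 587, 639, 576, 532 and 1007 CPM at 1-week, a change of 0.68 ± 0.14 (adjusted p = 0.00152) that fell to 0.49, below the fold threshold, without 1-week replicate 5. Col8a2 went from 0.84 ± 0.17 to 0.57 without that library. The adjusted p in that fit was 0.00469 for Col12a1 and 0.00362 for Col8a2. Compared with contralateral joints of the same time, 11 of the 17 collagens were higher in injured joints at 1-day and 13 at 1-week, with medians of 0.84 and 1.40.

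Among 23 activated fibroblast and matricellular genes, 4 were higher and 2 lower in injured joints (median 0.15; 7 and 1 with housekeeping scaling), and 2 were higher and 10 lower in contralateral joints (median -0.34). Tnn, a tenascin of periosteum and tendon, had 199, 141, 142, 245 and 234 CPM at 1-day and 431, 439, 382, 390.5 and 669 CPM at 1-week, a change of 1.26 ± 0.19 (adjusted p = 4.23e-05). Aspn, a small leucine-rich proteoglycan, had 206, 178, 228, 244 and 228 CPM at 1-day and 362, 452, 346, 357 and 588 CPM at 1-week, a change of 0.96 ± 0.17 (adjusted p = 0.000419). The groups were apart for both, with 1-week replicate 5 highest, and without it the changes were 1.09 and 0.80. Nov (Ccn3) and Lrrc15 were the other 2 that rose. Thbs4 and Cilp were the 2 that fell, at -0.79 ± 0.15 (adjusted p = 0.000667) and -0.69 ± 0.14 (adjusted p = 0.00122), and both fell in contralateral joints too, at -0.85 and -0.72. The injured call of Cilp was lost with housekeeping scaling (-0.54) and with 2 RUVg factors (-0.43), and the latter also ended its contralateral call (-0.57).

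Of 14 tendon, lubricin and hyaluronan genes, 1 was higher and 2, Has2 among them, were lower in injured joints (median -0.16), with positive log2 fold changes for 3 and negative for 11. In contralateral joints 6 were lower and 0 higher (median -0.62). The member that rose was the tendon marker Tnmd, which had 57.4, 61.7, 62.2, 54.4 and 66.0 CPM at 1-day and 93.9, 109, 91.5, 87.6 and 151 CPM at 1-week in injured joints, a change of 0.82 ± 0.19 (adjusted p = 0.00341). It fell in contralateral joints, from 39.5 to 68.9 CPM to 20.6 to 46.1 CPM, a change of -0.75 ± 0.20 (adjusted p = 0.0127). The interaction was 1.57 ± 0.27 (adjusted p = 0.00143).

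Of 23 collagen folding, processing and crosslinking enzymes, 3 were lower and 0 higher in injured joints (median -0.32), namely Lox, Loxl1 and Pcolce2. In contralateral joints 6 were lower and 0 higher (median -0.49), and the median of the interaction was 0.21. With housekeeping scaling 1 was lower and 1 higher, and without 1-week replicate 5 there were 5 lower. Pcolce2 was no longer called with housekeeping scaling (-0.58) or 2 RUVg factors (-0.54), and Loxl1 was not with housekeeping scaling (-0.46). The call of Loxl1 was lost without 1-day replicate 1 or 4 and without 1-week replicate 2 or 3, with log2 fold changes of -0.55, -0.50, -0.58 and -0.56 against -0.60. The lysyl oxidase Lox had 396, 286, 346, 511 and 375 CPM at 1-day and 162 to 248 CPM at 1-week, a change of -0.91 ± 0.14 (adjusted p = 5.00e-05). All 1-week joints were below all 1-day joints, with 3 of the 5 inside the range of the 0-day joints (134 to 211 CPM) and 2 above it. The latent TGF-beta binding protein Ltbp2 had 118, 72.4, 89.6, 154 and 91.4 CPM at 1-day and 47.6, 41.4, 41.9, 38.6 and 53.1 CPM at 1-week, a change of -1.25 ± 0.15 (adjusted p = 1.23e-06). It was 1 of 4 of the 23 TGF-beta and BMP genes that fell, beside Tgfbi, Gdf10 and Nog, and none rose (median -0.14). In contralateral joints 3 were lower and 0 higher (median -0.32). With housekeeping scaling 2 were lower and 1 higher, and Tgfbi was not called (-0.56). Nog was not called with that scaling or with 1 or 2 RUVg factors (adjusted p = 0.0605, 0.106 and 0.171). It was also lost without 1-day replicate 1, 4 or 5 or 1-week replicate 1, 2 or 4, with log2 fold changes from -0.67 to -0.88 against -0.90.

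Of 21 Wnt receptors, ligands and antagonists, 4 were lower and 1, Dkk3, was higher in injured joints (median -0.15, which turned to 0.00 with housekeeping scaling), and 4 were lower and 0 higher in contralateral joints (median -0.36). The lower members were Sfrp1, Sfrp2, Frzb and Dkk2, all known as secreted Wnt modulators, and 2 were lower with housekeeping scaling. Sfrp2 had 127, 81.5, 131, 146 and 105 CPM at 1-day and 53.8, 56.5, 59.7, 44.7 and 61.1 CPM at 1-week, a change of -1.0998 ± 0.16 (adjusted p = 3.90e-05), and its 1-week joints were still above every 0-day joint (24.04 to 43.3 CPM). Sfrp1 changed by -0.90 ± 0.18 (adjusted p = 0.00121), Frzb by -0.74 ± 0.18 (adjusted p = 0.00636) and Dkk2 by -0.69 ± 0.17 (adjusted p = 0.00513). The calls of Frzb and Dkk2 were lost with housekeeping scaling, at -0.58 and -0.55, and that of Frzb with 2 RUVg factors too (adjusted p = 0.0780). Sfrp2 fell in contralateral joints as well, from 23.7 to 44.0 CPM to 8.49 to 15.5 CPM, a change of -1.42 ± 0.19 (adjusted p = 1.61e-05).

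Matrix proteases and their inhibitors were split. Of 22 measured genes, 3 were higher (Mmp2, Mmp14 and Timp4) and 2 lower (Adamts1 and Timp1) in injured joints, with 1 higher and 4 lower in contralateral joints (median -0.31). The metalloproteinase Adamts16, which rose in injured joints, is not on this list. The injured median of -0.10 turned to 0.05 with housekeeping scaling. Adamts1 was not called on that scale (-0.58), which left 1 lower, and 4 were lower without 1-day replicate 2 or 1-week replicate 4. The gelatinase Mmp2 (chr8:92827290-92853421) had 406, 309, 307, 427 and 362 CPM at 1-day and 585, 549.5, 494, 578 and 773 CPM at 1-week, a change of 0.72 ± 0.12 (adjusted p = 0.000142). Contralateral joints went from 232 to 302 CPM to 164 to 213 CPM, and the interaction was 1.21 ± 0.17 (adjusted p = 0.000125). Mmp14, which activates Mmp2, changed by 0.60 ± 0.11 (adjusted p = 0.000639), just over the fold threshold. Its change was 0.47 without 1-week replicate 5 and was also below the threshold without 1-day replicate 2, 3 or 5 (0.56, 0.54 and 0.58). The inhibitor Timp1 had 146, 93.4, 107, 199 and 122 CPM at 1-day and 54.2, 59.7, 57.6, 47.8 and 68.5 CPM at 1-week, a change of -1.22 ± 0.14 (adjusted p = 1.53e-06), and every 1-week joint was above every 0-day joint (26.7 to 37.8 CPM).

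Of 14 osteoblast and osteocyte genes, 8 were lower in injured joints (median -0.63) and 10 in contralateral joints (median -0.71), and none of the called members was higher. With housekeeping scaling or 1 or 2 RUVg factors, 5 were lower in injured joints. The osteocalcin gene Bglap had 469.8, 472, 360.1, 421 and 539.8 CPM at 1-day and 208, 179, 218, 174 and 232 CPM at 1-week in injured joints, a change of -1.16 ± 0.14 (adjusted p = 1.20e-06). In contralateral joints it went from 465 to 711 CPM to 236 to 381 CPM, a change of -0.79 ± 0.13 (adjusted p = 0.000235). The groups of time points did not overlap in either joint.

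Of 19 measured cartilage genes, 3 were lower in injured joints (Matn1, Chad and Cytl1, median -0.44) and 16 in contralateral joints (median -0.90), and the interaction was called for Acan and Sox5, both with the higher value in injured joints. With 2 RUVg factors 0 of the 19 were called in injured joints, and the adjusted p was 0.102 for Matn1, 0.0540 for Chad and 0.182 for Cytl1. Without 1-day replicate 3, 5 were lower. The call of Matn1 was also lost without 1-day replicate 2 and without 1-week replicate 1 or 4 (adjusted p = 0.0806, 0.0512 and 0.0645 against 0.0201). Acan, the large proteoglycan of cartilage, had 408, 450.3, 150.0, 416 and 407 CPM at 1-day and 459, 452, 517, 458 and 803 CPM at 1-week in injured joints, a change of 0.55 ± 0.23 that missed the threshold (adjusted p = 0.101) but passed with housekeeping scaling (0.70, adjusted p = 0.0246) and with 1 RUVg factor (0.71, adjusted p = 0.0320). In contralateral joints it went from 348 to 438 CPM to 166 to 298 CPM, a change of -0.76 ± 0.23 (adjusted p = 0.0295) that was lost with 2 RUVg factors (adjusted p = 0.0685), without 1-day contralateral replicate 2 (adjusted p = 0.0748) or 1-week contralateral replicate 2 or 4 (adjusted p = 0.0784 and 0.0676). The interaction was 1.32 ± 0.32 (adjusted p = 0.0263) and was lost without 1-week injured replicate 5 (1.13, adjusted p = 0.0611), without 1-day contralateral replicate 2 (adjusted p = 0.0552) and without 1-week contralateral replicate 2 (adjusted p = 0.0549). The summed level of the 19 cartilage genes was lowest in injured 1-day replicate 3 (2307 CPM, against a group median of 5267) and highest among 1-week joints in replicate 5 (6476 CPM, against a median of 3724), and the part of these joints in the Acan values was not tested.

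Of 12 white and brown fat genes, 6 were lower in injured joints (median -0.57, 2 values positive) and 6 in contralateral joints (median -0.68, 3 values positive), and none of the called members was higher. The lipid droplet gene Plin1 had 22.1, 17.1, 16.9, 18.1 and 17.6 CPM at 1-day and 7.06, 5.01, 7.06, 5.09 and 5.77 CPM at 1-week, a change of -1.62 ± 0.18 (adjusted p = 4.22e-07), beside -1.50 ± 0.17 in contralateral joints (adjusted p = 1.69e-06). The adipokine Adipoq had 100.5, 76.2, 81.5, 69.1 and 72.5 CPM at 1-day and 47.0, 48.1, 50.2, 47.2 and 37.4 CPM at 1-week, a change of -0.80 ± 0.13 (adjusted p = 8.04e-05). Neither gene had overlapping groups. The secreted angiopoietin-like factor Angptl7 (chr4:148495181-148500462) had 195, 172, 125, 174 and 195 CPM at 1-day and 39.1, 39.1, 49.0, 25.4 and 36.2 CPM at 1-week, a change of -2.19 ± 0.17 (adjusted p = 1.63e-09). Its contralateral change was -1.79 ± 0.16 (adjusted p = 1.26e-07), among the 3 falls of smallest adjusted p in those joints with Ntn1 and Ccdc3.

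**Figure D4:**
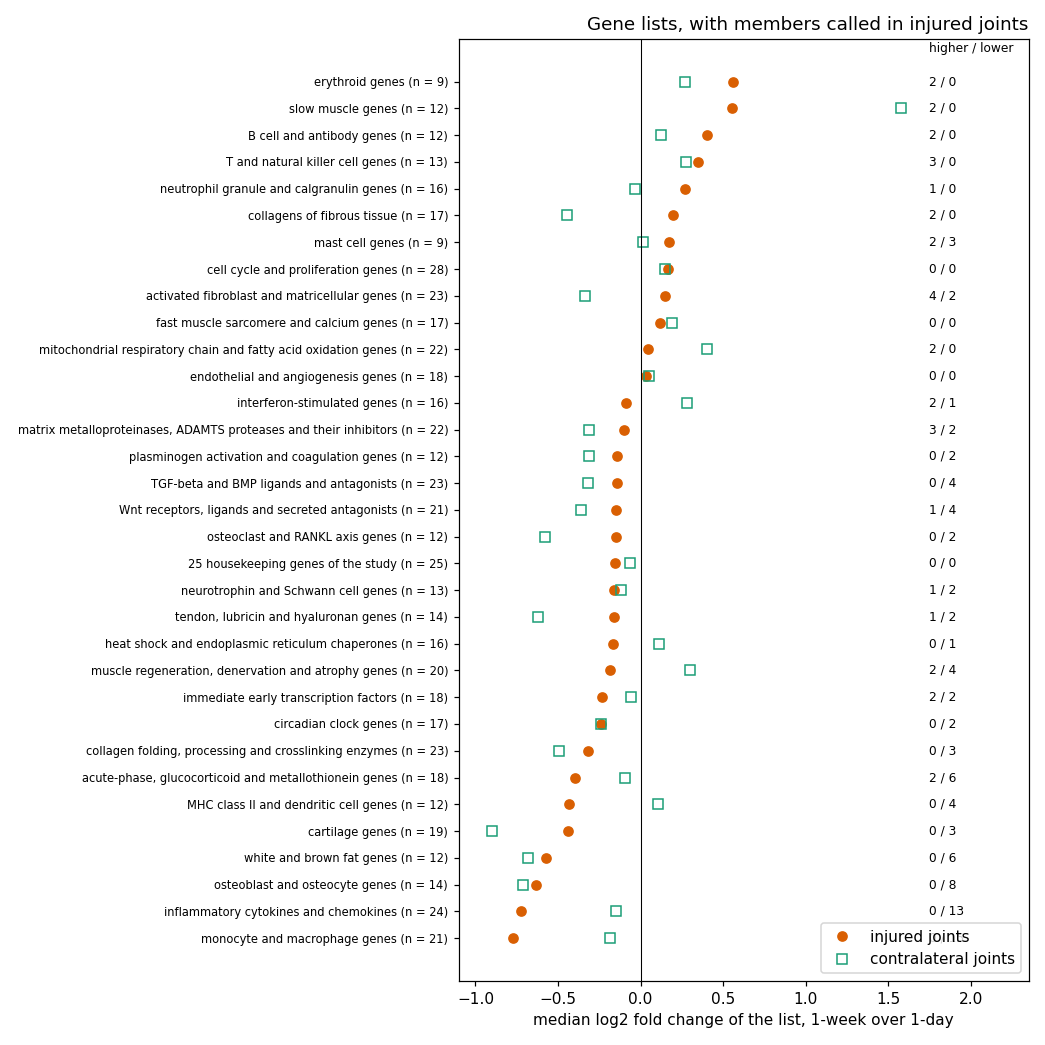
Median log2 fold change of 1-week over 1-day (x axis) of 33 gene lists in injured joints (circles) and contralateral joints (squares); n is the number of measured members, and the numbers at the right are members called higher and lower in injured joints. Macrophage genes (-0.78) and chemokines (-0.72) lie furthest left in injured joints with contralateral medians of -0.18 and -0.15, while bone and fat genes lie to the left in both.

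Pdk4 and Ucp3, genes of fuel use in muscle, rose in both joints. Pdk4, the kinase that shifts muscle from glucose to fat oxidation, had 105, 41.5, 79.4, 124 and 45.9 CPM at 1-day and 519.9, 583, 382, 565 and 257 CPM at 1-week in injured joints, a change of 2.54 ± 0.31 (adjusted p = 2.56e-06). In contralateral joints it went from 31.7 to 78.0 CPM to 343 to 1010 CPM, a change of 4.04 ± 0.34 (adjusted p = 5.73e-08). The uncoupling protein Ucp3 had 29.8, 19.0, 27.6, 23.6 and 18.4 CPM at 1-day and 92.9, 119, 66.1, 126 and 62.8 CPM at 1-week in injured joints, a change of 1.99 ± 0.23 (adjusted p = 1.09e-06), beside 2.54 ± 0.23 in contralateral joints (adjusted p = 1.26e-07). The lipid droplet protein Plin5 was the third gene of the contralateral rises with the smallest adjusted p, at 2.25 ± 0.23 (adjusted p = 6.46e-07). All 1-week joints were above all 1-day joints for Pdk4 and Ucp3. The summed level of 17 fast muscle genes overlapped between the injured groups, at 53100 to 82900 CPM at 1-day and 46780 to 90350 CPM at 1-week, and 0 of these genes were called in injured joints, where the edgeR test gave 2 of them an unadjusted p below 0.05 and DESeq2 called 0. Without 1-week replicate 5 or with housekeeping scaling 1 was higher, and with 1 or 2 RUVg factors 1 was lower.

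The ubiquitin ligases Trim63 and Fbxo32, which are known for muscle atrophy, changed differently in the 2 joints. They belong to a list of 20 measured muscle regeneration, denervation and atrophy genes, of which 2 were higher and 4 lower in injured joints (median -0.19; 1 to 3 and 3 to 8 over the alternatives) and 4 higher and 1 lower in contralateral joints (median 0.30). Trim63 had 139.6, 76.6, 178, 163 and 101 CPM at 1-day and 46.1, 77.3, 62.4, 59.7 and 33.4 CPM at 1-week in injured joints, a change of -1.24 ± 0.24 (adjusted p = 0.000743), and a contralateral change of 0.64 ± 0.24 that missed the threshold (adjusted p = 0.0826) but passed without 1-day contralateral replicate 1 (0.86, adjusted p = 0.0180) or 1-week contralateral replicate 5 (0.77, adjusted p = 0.0342). The groups of Trim63 overlapped slightly in injured joints. The interaction was -1.88 ± 0.34 for Trim63 (adjusted p = 0.00194) and -2.06 ± 0.37 for Fbxo32 (adjusted p = 0.00211). For Fbxo32 the change was -0.76 ± 0.26 in injured joints (adjusted p = 0.0466) and 1.30 ± 0.26 in contralateral joints (adjusted p = 0.00157). The injured call of Fbxo32 was lost in 9 of 20 alternatives, among them those without 1-day replicate 1, 3 or 4 or 1-week replicate 1, 4 or 5, with log2 fold changes between -0.81 and -0.59. Of 12 slow muscle genes, 2 were higher in injured joints (median 0.56) and 10 in contralateral joints (median 1.58). Their summed level in contralateral joints was 1426 to 1865 CPM at 1-day and 2445 to 4575 CPM at 1-week, without overlap. The fast muscle sum overlapped there, at 57550 to 133200 CPM and 66930 to 118500 CPM. All 22 mitochondrial genes had positive log2 fold changes in contralateral joints (median 0.40). The part of muscle content in the contralateral changes and the interactions was not tested. The injured count of slow muscle genes was 0 with 1 or 2 RUVg factors and without 1-day replicate 1 or 4 or 1-week replicate 1 or 4, and 4 when only the compared groups were fitted.

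Cxcr2, the neutrophil receptor for Cxcl1 and Cxcl5, had 76.6, 62.2, 63.8, 62.5 and 65.2 CPM at 1-day and 85.1, 108, 108, 108 and 121 CPM at 1-week, a change of 0.68 ± 0.10 (adjusted p = 5.01e-05). The groups of Cxcr2 were apart, with 1-day the lower. It was the 1 neutrophil gene of 16 that passed the threshold (median 0.27; 4 passed with housekeeping scaling and 2 with RUVg factors or without 1-day replicate 1 or 1-week replicate 2), and the summed level of the 16 was 11980 to 15040 CPM at 1-day and 15360 to 17340 CPM at 1-week. The 1-day joints were the low group, since the sum was 16900 to 20470 CPM at 0-day and 16970 to 21140 CPM and 16610 to 21290 CPM in contralateral joints at 1-day and 1-week. Against contralateral joints of the same time all 16 had negative log2 fold changes in injured joints, with medians of -0.45 at 1-day and -0.17 at 1-week. None passed the fold threshold, and the edgeR test gave 16 and 6 of them an unadjusted p below 0.05. Of 13 T and natural killer cell genes 3 were higher (median 0.35), of 12 B cell genes 2 (median 0.40) and of 9 erythroid genes 2 (median 0.56), with 0 lower on these 3 lists. In contralateral joints 2 T and natural killer cell genes were higher, the medians of the 3 lists were 0.27, 0.13 and 0.27, and against those joints at 1-day the injured medians were -0.26, -0.44 and -0.47. The T cell count was 6 with 1 RUVg factor. The B cell count was 0 without 1-day replicate 1, 4 or 5 or 1-week replicate 1 or 3. The erythroid count was 6 with housekeeping scaling, 7 and 6 with 1 and 2 RUVg factors, 6 without 1-day replicate 2 or 1-week replicate 5, 5 without 1-week replicate 2 and 4 without 1-day replicate 3. No cell type was sorted, and the part of marrow or blood in these values was not tested.

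None of 28 cell cycle genes passed the threshold in injured joints (median 0.17). The edgeR test gave 11 of them an unadjusted p below 0.05, and DESeq2 called 0, but 2 were called higher with housekeeping scaling and 3 with 2 RUVg factors. Circadian clock genes were lower in part in both joints, with Dbp and Ciart called in injured joints (2 to 6 lower and 0 to 2 higher over the alternatives) and 2 higher and 5 lower of 17 in contralateral joints. The hour of dissection was not given in the sources used here, and its part was not tested. Interferon-stimulated genes were mixed, with 2 higher and 1 lower of 16. Of 9 mast cell genes 2 were higher and 3 lower, the latter including the proteases Mcpt4 and Tpsb2. In injured joints 2 of 18 immediate early genes were higher and 2 lower, 1 of 16 chaperones was lower, 2 of 22 mitochondrial genes were higher, 2 of 12 osteoclast genes were lower, 1 of 13 neurotrophin and Schwann cell genes was higher and 2 lower, and 0 of 18 endothelial, 0 of 3 measured skin and 0 of 25 housekeeping genes were called by edgeR or DESeq2, with an unadjusted p below 0.05 in the edgeR test for 7, 0 and 10 of them. These small counts, beside 1.66% of all genes higher and 2.69% lower in injured joints, moved with the settings. Over the alternatives, 0 to 2 immediate early genes were higher and 1 to 4 lower, 0 or 1 chaperone was lower, 1 or 2 mitochondrial and 1 or 2 interferon-stimulated genes were higher, 1 or 2 osteoclast genes were lower, 0 or 1 neurotrophin and Schwann cell gene was higher and 1 to 3 lower, 1 to 3 mast cell genes were higher and 2 or 3 lower, and 1 endothelial gene was lower without 1-day replicate 2 or 3. In contralateral joints 1 immediate early gene was higher and 3 lower, 1 chaperone and 4 mitochondrial genes were higher, 5 osteoclast genes and 1 endothelial gene were lower, and 1 mast cell and 1 neurotrophin or Schwann cell gene was higher and 2 of each lower.

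The interaction of injury and time asked whether the change from 1-day to 1-week differed between injured and contralateral joints. It was called for 266 genes (1.54%), 143 with the higher value in injured joints and 123 with the lower. With a block for each replicate number at each time point, which treats same-numbered joints as pairs, the counts were 166 and 202. The share with the higher value was then 45.1% in place of 53.8%. The labels do not say that these joints are paired. Beside Pamr1 and Tspan2, the genes of smallest adjusted p with the higher value were Clec3b, Pla1a and Fbln7. Clec3b, which encodes tetranectin, had 25.9, 25.02, 21.6, 20.9 and 21.8 CPM at 1-day and 40.8, 40.8, 27.5, 45.5 and 33.1 CPM at 1-week in injured joints and went from 37.0 to 62.6 CPM to 17.3 to 22.9 CPM in contralateral joints. Its levels rose in injured and fell in contralateral joints, with no overlap between times in either, and the interaction was 1.88 ± 0.20 (adjusted p = 7.31e-06). The phospholipase Pla1a changed by 0.68 ± 0.15 in injured and -1.09 ± 0.14 in contralateral joints, with an interaction of 1.77 ± 0.21 (adjusted p = 2.30e-05). For the matrix protein Fbln7 the interaction was 1.58 ± 0.19 (adjusted p = 2.30e-05), with the contralateral fall of -1.04 called and the injured change of 0.54 not (adjusted p = 0.00489, below the fold threshold). The injured change was called with housekeeping scaling (0.69), with 1 or 2 RUVg factors (0.59 and 0.74), and without 1-day injured replicate 5 or 1-week injured replicate 3, at 0.60 and 0.60.

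On the lower side, the genes of smallest adjusted p were Msr1, Ctss, Adgre1, Ppp1r27 and Lgmn. The muscle phosphatase regulator Ppp1r27 had 34.2, 20.3, 46.9, 37.7 and 24.8 CPM at 1-day and 13.7, 21.1, 17.2, 15.2 and 11.6 CPM at 1-week in injured joints, and went from 10.6 to 20.6 CPM to 22.6 to 40.2 CPM in contralateral joints. The contralateral groups were apart, those of the injured joints overlapped, and the interaction was -2.16 ± 0.30 (adjusted p = 0.000135). The split of the calls also moved with the scale, from 53.8% with the higher value to 73.9% with housekeeping scaling and to 41.4% and 38.2% with 1 and 2 RUVg factors.

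The change from 1-day to 1-week in injured joints was set beside that of MRL/MpJ, a strain known for scarless healing, and of STR/ort, a strain prone to osteoarthritis, with 5 injured joints at each time in each strain. These values come from 1 fit of the 30 injured libraries, and both strain comparisons share the C57BL/6 joints. The change differed between C57BL/6 and MRL/MpJ for 608 genes (3.51%), 136 with the higher value in C57BL/6 (0.786%) and 472 with the lower. The former count was 90 without 1-day MRL/MpJ replicate 3. Between C57BL/6 and STR/ort it differed for 3149 genes (18.2%), 1203 higher (6.95%) and 1946 lower in C57BL/6. This split was 52.9% higher with library totals in place of TMM factors, against 38.2%, and that with MRL/MpJ was 33% higher with housekeeping scaling, against 22.4%.

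Sfrp2 was the gene of smallest adjusted p on the lower side of both comparisons. It fell in C57BL/6 from 117 ± 24.8 to 55.3 ± 6.56 CPM (mean ± SD, n = 5). In MRL/MpJ it rose from 15.7 ± 1.96 to 43.4 ± 2.83 CPM, and in STR/ort from 28.2 ± 6.30 to 115 ± 13.01 CPM. The differences of C57BL/6 in log2 fold change were -2.55 ± 0.19 from MRL/MpJ (adjusted p = 2.51e-10) and -3.11 ± 0.18 from STR/ort (adjusted p = 4.30e-13). At 1-day the C57BL/6 mean was the highest of the 3 strains, and at 1-week that of STR/ort was.

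Col14a1, a collagen of fibril surfaces, had 185 ± 19.6 and 209.5 ± 23.4 CPM at 1-day and 1-week in C57BL/6 and 31.1 ± 4.59 and 172 ± 12.99 CPM in MRL/MpJ, a difference in log2 fold change of -2.29 ± 0.19 (adjusted p = 2.17e-09). The phospholipid transfer protein Pltp fell from 44.0 ± 6.76 to 21.4 ± 1.69 CPM in C57BL/6 and had 21.3 ± 3.19 and 31.1 ± 1.71 CPM at the 2 times in MRL/MpJ, where its log2 fold change of 0.54 was under the fold threshold, a difference of -1.58 ± 0.13 (adjusted p = 2.17e-09). On the higher side, Pdk4 rose from 78.8 ± 36.0 to 463 ± 139 CPM in C57BL/6 and fell from 292 ± 59.4 to 122 ± 57.5 CPM in MRL/MpJ, a difference of 3.81 ± 0.43 (adjusted p = 6.23e-07). The predicted gene Gm12505 was also named on this side, with a difference of 2.05 ± 0.31 (adjusted p = 8.05e-05).

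Against STR/ort, Anpep and the macrophage glycoprotein Gpnmb joined Sfrp2 on the lower side. Gpnmb fell from 49.9 ± 6.56 to 22.2 ± 1.73 CPM in C57BL/6 and rose from 10.7 ± 3.14 to 40.9 ± 7.69 CPM in STR/ort, a difference of -3.10 ± 0.21 (adjusted p = 8.02e-12). The aminopeptidase Anpep had a difference of -1.99 ± 0.12 (adjusted p = 8.06e-13), with 61.7 ± 4.81 CPM in C57BL/6 and 124 ± 4.42 CPM in STR/ort at 1-week. On the higher side, the lymphocyte transcription factor Bach2 rose from 31.7 ± 4.37 to 50.1 ± 3.65 CPM in C57BL/6 and fell from 51.6 ± 7.55 to 26.9 ± 2.89 CPM in STR/ort, a difference of 1.60 ± 0.13 (adjusted p = 5.26e-10). The difference of Cecr2 was 1.95 ± 0.17 (adjusted p = 1.15e-09).

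By list, macrophage genes of C57BL/6 had a median log2 fold change of -0.76 in this fit, beside -0.07 in MRL/MpJ and -0.01 in STR/ort, and the difference was called lower in C57BL/6 for 11 of the 21 against MRL/MpJ (2.73% of all genes) and for 9 against STR/ort (11.2%), with 0 and 2 higher. The chemokine list had medians of -0.71, -0.53 and -0.68 in C57BL/6, MRL/MpJ and STR/ort, and its difference was called for 2 and 8 of the 24. Collagens had medians of 0.21 in C57BL/6, 0.68 in MRL/MpJ and 1.80 in STR/ort, and the difference was lower in C57BL/6 for 6 and 15 of the 17. Collagen-processing enzymes were lower in C57BL/6 for 7 and 20 of the 23 and matricellular genes for 10 and 20 of the 23. Leukocyte genes also moved between times in STR/ort, where 9 of 12 B cell genes (median -1.01), 9 of 12 MHC class II and dendritic cell genes (median -0.73), 3 of 13 T and natural killer cell genes (median -0.48) and 2 of 16 neutrophil genes (median -0.46) were called lower at 1-week (4.22% of all genes). The difference from STR/ort was called higher in C57BL/6 for 15 of 16 neutrophil, 10 of 12 B cell and 6 of 13 T and natural killer cell genes (6.95% of all genes). It was also higher for 7 of 9 erythroid and 14 of 28 cell cycle genes, with 0 lower on each of these lists. The part of leukocyte and marrow genes in the STR/ort differences was not tested.

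**Figure D5:**
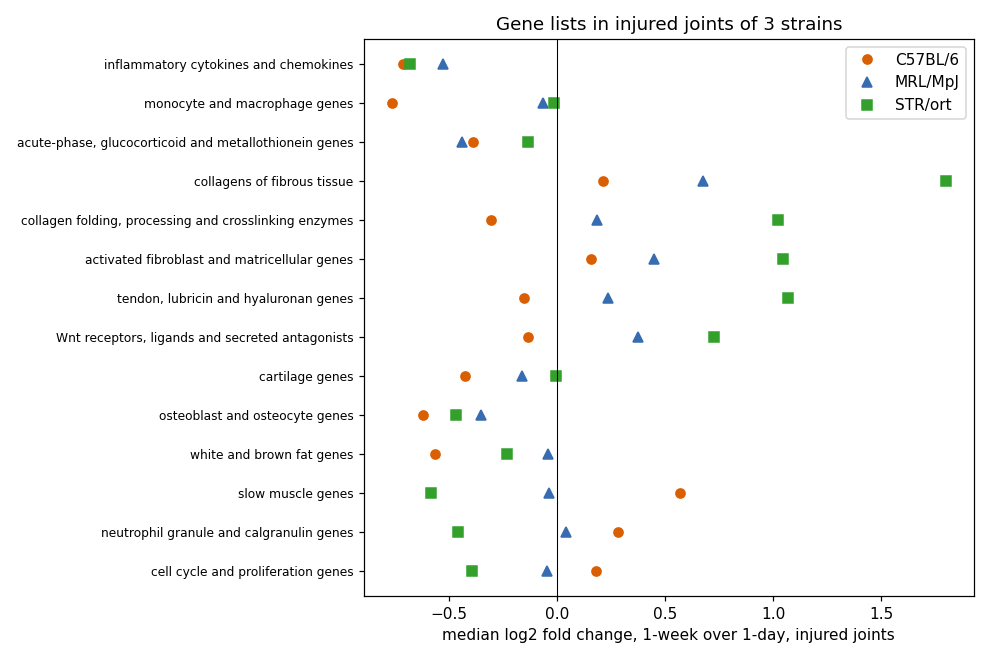
Median log2 fold change of 1-week over 1-day in injured joints (x axis) of 14 gene lists in C57BL/6 (circles), MRL/MpJ (triangles) and STR/ort (squares), 5 joints per time and strain. Macrophage genes lie at -0.76 in C57BL/6 and near 0 in the other strains, chemokines lie left of 0 in all 3, and collagens lie at 0.21, 0.68 and 1.80.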

How the data were processed

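RNA from whole joints was sequenced as poly(A) libraries. Per the labels and the methods of the study, the authors aligned reads to mm10 with TopHat2 2.0.11, counted reads per RefSeq gene with featureCounts, and deposited the raw counts, which were used as deposited. The strand setting and the sex of the mice are not given in the sources used here. Of 17313 entries, 3 identical repeats were dropped, and 24 gene names had been turned into dates. Requiring 2 or more reads in 5 or more libraries removed 0 genes. The quasi-likelihood test of edgeR 4.0.16 (R 4.3.3) with TMM factors was fitted to 24 C57BL/6 libraries, and to 30 injured libraries for the strains, with Benjamini-Hochberg adjustment over all 17310 genes. It was first tested on simulated data. The smallest adjusted p-values decided which genes were named (12 per direction in injured joints, 5 for the interaction, 3 elsewhere, at a mean of at least 1 CPM), beside members of 35 gene lists, and some of these genes are not reported here. The members and lists were chosen with earlier results of these data known. Genes of one family, such as class II and osteocalcin genes, and overlapping genes may share reads. Alternatives were RLE and housekeeping scaling, library totals, RUVg, DESeq2 1.42.0, filterByExpr, no filter, only the compared groups, a replicate block and leaving out each library. The block was the replicate number, and for the interaction the number within each time point. Promoters came from RefSeq (GRCm38.p6).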

Additional observations from a re-analysis of the deposited data

Results flagged for a closer look

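Among the 106 named genes, 14 of 212 groups of 5 injured joints held a library far from the other 4 by Dixon's test, and chance flags about 1 in 20 groups. The 1-week library of replicate 5 was high for Acan (803 CPM), Col12a1 (1007 CPM), Col8a2 (51.3 CPM), Mmp14 (543 CPM), Tnn (669 CPM), Tspan2 (56.8 CPM) and Saa3 (1.34 CPM) and low for Adipoq (37.4 CPM) and Ccl9 (42.4 CPM). Replicate 3 of the 1-week joints was high for Ccl12 (1.01 CPM). Of the 1-day joints, replicate 3 was low for Acan (150.0 CPM) and Pcolce2 (41.7 CPM), and replicate 1 was high for Plin1 (22.1 CPM) and Cxcr2 (76.6 CPM).

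The change from 1-day to 1-week differed between injured and contralateral joints for 266 genes by the interaction term of the edgeR fit. Among the named genes, the difference in log2 fold change was positive for Pamr1 (2.67), Clec3b (1.88), Pla1a (1.77), Fbln7 (1.58), Tnmd (1.57), Acan (1.32), Mmp2 (1.21), Sox5 (1.05) and Tspan2 (0.88). It was negative for Cxcl5 (-2.84), Ccl2 (-2.69), Ppp1r27 (-2.16), Fbxo32 (-2.06), Trim63 (-1.88), Msr1 (-1.40), Ctss (-0.93), Lgmn (-0.83), H2-Eb1 (-0.83) and Adgre1 (-0.82).

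The change also differed between strains, for 608 genes between C57BL/6 and MRL/MpJ and for 3149 between C57BL/6 and STR/ort. Against MRL/MpJ the differences in log2 fold change were 3.81 for Pdk4, 2.05 for Gm12505, -1.58 for Pltp, -2.29 for Col14a1 and -2.55 for Sfrp2. Against STR/ort they were 1.95 for Cecr2, 1.60 for Bach2, -1.99 for Anpep, -3.10 for Gpnmb and -3.11 for Sfrp2.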

How the results depend on the processing

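Counts of genes called in injured joints moved most with housekeeping scaling, to 687 higher and 296 lower, so that 69.9% were higher against 38.2%. Leaving out each library gave 209 to 350 higher and 369 to 520 lower. In contralateral joints these ranges were 158 to 312 and 417 to 611. The lower count of the interaction was 68 with housekeeping scaling, 266 and 304 with 1 and 2 RUVg factors, and 83 to 173 without single libraries. The higher count against MRL/MpJ was 229 and 258 with 1 and 2 RUVg factors, and 90 to 192 without single libraries. The cause of these shifts was not tested. Same-numbered injured and contralateral joints deviated together in part (correlations from 0.068 to 0.196 at 1-day and from -0.123 to 0.603 at 1-week, over 0.1 in 4 and 3 of 5 pairs, 2 of 5 joints closest to their own number at each time). The labels do not say that a number marks an animal, and whether the joints are paired was not settled. With the replicate number as a block, 290 genes were higher and 453 lower in injured joints. With a block for each number at each time point, the interaction was called higher for 166 genes and lower for 202. The small change of Col3a1 in injured joints turned to -0.003 without 1-day replicate 2 and to -0.013 without 1-week replicate 5 (up to 0.227 without other libraries), and that of Cxcl5 in contralateral joints to -0.17 without 1-week contralateral replicate 4 (up to 0.284). Of the other values of single genes, 1402 under other settings and 1697 without single libraries kept their direction and side of the threshold, 30 and 34 dropped below it, and 6 and 6 passed it. The values with no filter repeat the main fit, since the filter removed 0 genes, and count among the unchanged. List medians of plasminogen, Wnt and protease genes changed sign with housekeeping scaling, to 0.01, 0.00 and 0.05. Depth limits genes near 1 CPM.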
